A study of Mus musculus with 14 samples.

Results

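The metabotropic glutamate receptor genes Grm2, Grm3, Grm4, Grm5, Grm7 and Grm8 were described in the superior colliculus of newborn mice. They are 6 of the 55359 Ensembl gene IDs in each count table and were taken by matching the IDs to these symbols, whatever their values. The superior colliculus is the midbrain structure that receives visual input from the retina in its superficial layers and input of other senses in its deep layers. ICR/CD-1 pups were injected between postnatal days 0 and 1 into the vitreous humor of the eye with 50 mM carbenoxolone (cbx, a blocker of gap junctions, used here to abolish retinal waves) or with saline, in 0.3 to 0.5 µL. Both layers were microdissected at postnatal day 6, and their poly-A RNA was sequenced. The groups were cbx superficial (n = 4), saline superficial (n = 3), cbx deep (n = 4) and saline deep (n = 3). Because 3 brains went into each library, p-values reflect how pools vary, not how single pups do.

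Metabotropic glutamate receptors are G protein-coupled receptors that respond to glutamate, the main excitatory transmitter of the brain, and modulate synapses rather than carry fast current. Group I receptors couple to Gq and phospholipase C and lie mostly at postsynaptic sites. Group II and group III receptors couple to Gi/o, lower cyclic AMP and mostly reduce transmitter release from presynaptic terminals. Grm5 encodes mGluR5 of group I, also made by immature astrocytes. Grm2 and Grm3 encode the group II receptors mGluR2 and mGluR3, of which mGluR3 is found in astrocytes as well as neurons. Grm4, Grm7 and Grm8 encode mGluR4, mGluR7 and mGluR8 of group III, and mGluR7 has a low affinity for glutamate and sits in the active zone of terminals.

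The start regions of the group II genes are shown because these were the receptor genes whose layer patterns were farthest apart. Each is the RefSeq sequence in build GRCm38.p6, 250 bases before to 50 bases after the annotated start, written along the gene's strand, with each GC box (GGGCGG, searched on both strands) in capitals.
Grm2 (group II, chr9:106656060-106656359, minus strand): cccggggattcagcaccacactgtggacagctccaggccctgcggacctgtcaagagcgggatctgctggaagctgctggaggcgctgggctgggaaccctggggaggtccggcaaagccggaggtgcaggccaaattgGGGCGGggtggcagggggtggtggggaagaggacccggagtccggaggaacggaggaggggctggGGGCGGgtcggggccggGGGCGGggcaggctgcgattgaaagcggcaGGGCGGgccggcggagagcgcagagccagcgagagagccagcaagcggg
Grm3 (group II, chr5:9725303-9725602, minus strand): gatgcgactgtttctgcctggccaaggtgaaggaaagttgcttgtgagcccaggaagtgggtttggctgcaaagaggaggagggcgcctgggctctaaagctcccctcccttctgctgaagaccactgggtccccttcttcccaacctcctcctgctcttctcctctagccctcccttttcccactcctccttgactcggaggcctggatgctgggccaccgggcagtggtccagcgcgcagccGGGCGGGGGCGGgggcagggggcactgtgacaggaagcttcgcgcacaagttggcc
The Grm2 window held 4 GC boxes and had a GC content of 72%, and the Grm3 window held 2 GC boxes at 63.7% GC, against a median GC content of 52.7% over all 32851 promoters in the table. At least 1 GC box stood in 35.7% of all those promoters. A CCAAT box (CCAAT, both strands) stood in the Grm2 window and not in the Grm3 window, and in 37.4% of all promoters. The letters TATAAA, found in 13.6% of promoters on either strand, were in neither window. Of the 6 genes, 4 had a promoter in the table, and Grm4 and Grm5 were the others. These matches describe the letters only.

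All 6 genes were detected in every library, with 486 to 12476 counts each, and all passed the filter on low counts that left 20330 genes for testing. Library totals were 32004952 to 48776827 counts. Levels between genes were compared as TPM, a scale that divides counts by annotated exon length, from 3049 bases for Grm3 to 10247 bases for Grm5. Grm3 had the highest TPM of the 6 in 13 of 14 libraries, and Grm5 had it in the other library, a saline deep one. In cbx superficial libraries Grm3 averaged 122 ± 34.2 TPM (SD, n = 4), followed by Grm5 at 58.6 ± 10.7, Grm4 at 54.3 ± 2.76 and Grm7 at 50.2 ± 3.73. The ranges of Grm5, Grm4 and Grm7 overlapped. Grm2 at 11.6 ± 1.12 TPM and Grm8 at 10.7 ± 0.605 TPM came last there. Their ranges also overlapped, though Grm2 was above Grm8 in each of these libraries. In saline superficial libraries (n = 3) the order was Grm3 at 144 ± 26.4, Grm5 at 71.2 ± 9.69, Grm7 at 61.5 ± 4.60, Grm4 at 49.5 ± 1.92, Grm2 at 10.8 ± 0.900 and Grm8 at 9.65 ± 0.716 TPM. There the range of Grm5 (64.9 to 82.4 TPM) overlapped that of Grm7 (57.4 to 66.5 TPM). The ranges of Grm2 (9.87 to 11.7 TPM) and Grm8 (9.13 to 10.5 TPM) overlapped as well. In each of these libraries, however, Grm5 was above Grm7 and Grm2 was above Grm8. In cbx deep libraries (n = 4) the ranges of Grm3 at 101 ± 11.8 TPM and Grm5 at 90.8 ± 7.38 TPM overlapped. Below them came Grm4 at 75.2 ± 4.61, Grm7 at 55.6 ± 0.677, Grm2 at 26.5 ± 2.38 and Grm8 at 14.8 ± 0.807 TPM. The saline deep libraries (n = 3) had the same order. Means were Grm3 at 103 ± 18.5, Grm5 at 96.1 ± 9.35, Grm4 at 69.2 ± 2.36, Grm7 at 61.8 ± 4.22, Grm2 at 21.2 ± 0.770 and Grm8 at 14.2 ± 1.27 TPM. The ranges of Grm3 and Grm5 overlapped again. The order rests on the annotated lengths, and the isoforms present were not measured.

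By receptor group, the shares of the summed TPM of the 6 genes differed between layers. Grm5, the group I gene, held 19.0% ± 0.657 (SD, n = 4) of the sum in cbx superficial and 24.9% ± 0.918 (n = 4) in cbx deep libraries. After saline it held 20.5% ± 0.932 in superficial and 26.3% ± 1.66 in deep libraries (n = 3 each). The share of group I was thus lower in every superficial library, with at most 21.1%, than in any deep library, with at least 24.0%. Group II held 42.9% ± 4.27 in cbx superficial against 35.1% ± 1.36 in cbx deep libraries, and 44.5% ± 3.06 in saline superficial against 33.9% ± 2.02 in saline deep libraries. Grm3 made up most of it in every group. Group III held 38.0% ± 4.63 in cbx superficial and 40.0% ± 1.84 in cbx deep libraries, and 35.0% ± 2.68 in saline superficial and 39.8% ± 2.04 in saline deep libraries, so that its layer ranges overlapped after cbx. Shares of one sum move against each other, and no test was made on them.

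Within each gene, levels are CPM, counts relative to library size scaled by the trimmed mean of M-values (TMM), and differences are on the log2 scale with their standard error (SE). P-values came from edgeR's quasi-likelihood test, adjusted by the Benjamini-Hochberg method over all 20330 genes, with a threshold of 0.05.

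**Figure D1:**
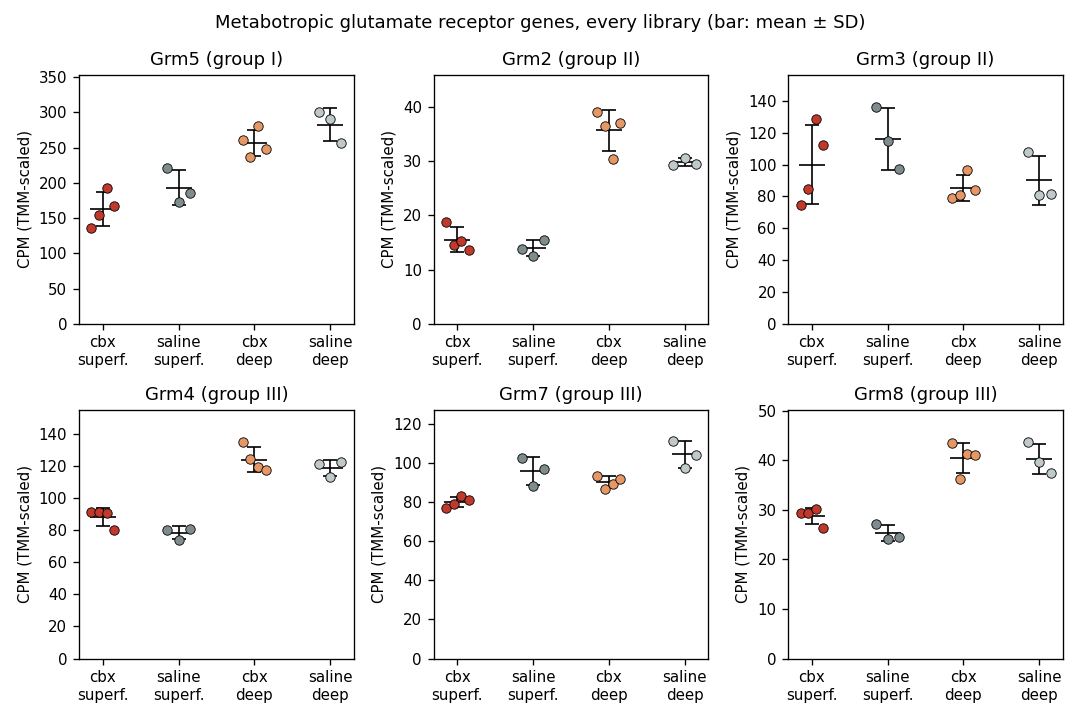
CPM (TMM-scaled, linear axis from 0) of each receptor gene in every library, by layer and treatment. Points are libraries and bars are means ± SD (n = 4 cbx and 3 saline libraries a layer). Grm2, Grm4, Grm5 and Grm8 are lower in every superficial than in every deep library, Grm3 overlaps between layers, and Grm7 is lower in every cbx than in every saline library of the same layer. The share of all genes with such separation was not counted.

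The layers were compared first, in each treatment on its own. After cbx, 5 of the 6 genes were lower in the superficial than in the deep layer and none was higher, where 32.2% of all genes tested passed in either direction. After saline, 4 of the 6 were lower and none higher, where 18.4% of all genes passed. The median log2 difference of the 6 genes was -0.49 after cbx and -0.57 after saline, against 0.018 and 0.042 over all genes. Grm2 had the largest difference of the 6, and Grm3 was the 1 gene with higher means in the superficial layer. Whether the libraries of the layers overlapped is given for each gene below. How many of all genes had layers without overlap was not counted.

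Grm5, the Gq-coupled receptor gene, was lower in the superficial layer. It had 135, 155, 193 and 167 CPM in cbx superficial libraries, against 261, 236, 280.2 and 249 CPM in cbx deep libraries. After saline it had 221, 173 and 185 CPM in superficial libraries, against 300.3, 291 and 256 CPM in deep libraries. No superficial library reached any deep one. The difference was -0.66 after cbx (SE 0.0975, adjusted p = 3.59e-05) and -0.55 after saline (SE 0.112, adjusted p = 0.00161).

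Grm2, a group II gene, showed the steepest layer difference of the 6. It had 18.8, 14.6, 15.2 and 13.6 CPM in cbx superficial libraries, against 39.2, 36.4, 30.4 and 37.1 CPM in cbx deep libraries. After saline it had 13.9, 12.6 and 15.5 CPM in superficial libraries, against 29.2, 30.7 and 29.5 CPM in deep libraries. The highest superficial value was below the lowest deep value in both treatments. The difference was -1.20 after cbx (SE 0.101, adjusted p = 1.95e-08) and -1.09 after saline (SE 0.117, adjusted p = 1.15e-06), which are folds of 0.434 and 0.470. An antisense gene, Gm28111, shares 470 bases (9.60%) of the exons of Grm2. Which strand was counted is not given in the sources used here, and reads of both genes cannot be told apart over those bases.

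Grm3, the other group II gene, did not follow Grm2. It had 74.6, 84.6, 129 and 112 CPM in cbx superficial libraries, against 78.9, 81.1, 96.9 and 83.8 CPM in cbx deep libraries. After saline it had 136, 115 and 97.4 CPM in superficial libraries, against 108, 81.1 and 81.5 CPM in deep libraries. The layers overlapped in both treatments, and superficial cbx libraries were the most scattered. The difference was 0.23 after cbx (SE 0.169, adjusted p = 0.330) and 0.36 after saline (SE 0.196, adjusted p = 0.249), so neither passed. Same-numbered libraries of the layers deviated together over genes of at least 1 CPM, a cut-off set after seeing the data, and less clearly over all genes. With that number as a block (a pool term) Grm3 was higher in the superficial layer by 0.21 after cbx (adjusted p = 0.0448) and by 0.36 after saline (adjusted p = 0.00583). Within 6 of 7 such pairs Grm3 was higher in the superficial library, and the exception, cbx pool 1, had a log2 difference of -0.08. Summed CPM of 8 astrocyte markers was 2744 to 3278 in cbx superficial against 1963 to 2264 in cbx deep libraries. After saline it was 2875 to 3553 in superficial against 2229 to 2734 in deep libraries. Gfap and Aqp4 had the largest gaps of the 8. Gfap averaged 478 CPM in cbx superficial and 10.7 CPM in cbx deep libraries, and 455 and 6.73 CPM after saline. Aqp4 averaged 601 and 220 CPM after cbx, and 621 and 255 CPM after saline. Slc1a2 went the other way, at 408 and 565 CPM after cbx, and 476 and 653 CPM after saline. Of the 8 astrocyte markers, 4 were higher and 1 lower in the superficial layer after cbx, and 2 were higher and 2 lower after saline. Over all genes, 32.2% passed after cbx and 18.4% after saline, in either direction. The part of astrocytes in the Grm3 levels was not tested. In bulk tissue, fewer cells of a type and less RNA per cell cannot be told apart.

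Grm4, a group III gene, was lower in the superficial layer. It had 91.5, 91.1, 90.4 and 80.2 CPM in cbx superficial libraries, against 135, 124, 119 and 118 CPM in cbx deep libraries. After saline it had 80.3, 74.0 and 81.0 CPM in superficial libraries, against 121, 113 and 123 CPM in deep libraries. The layers did not overlap. The difference was -0.49 after cbx (SE 0.0630, adjusted p = 5.10e-06) and -0.60 after saline (SE 0.0730, adjusted p = 5.67e-06).

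Grm8, another group III gene, had a layer pattern close to that of Grm4. It had 29.4, 29.3, 30.1 and 26.3 CPM in cbx superficial libraries, against 43.5, 36.2, 41.2 and 41.0 CPM in cbx deep libraries. After saline it had 27.2, 24.1 and 24.6 CPM in superficial libraries, against 43.6, 39.6 and 37.5 CPM in deep libraries. Again no superficial library reached a deep one. The difference was -0.49 after cbx (SE 0.0755, adjusted p = 3.91e-05) and -0.67 after saline (SE 0.0877, adjusted p = 1.36e-05).

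Grm7, the third group III gene, differed least between the layers. It had 77.0, 79.3, 83.2 and 81.0 CPM in cbx superficial libraries, against 93.5, 86.8, 89.2 and 91.7 CPM in cbx deep libraries. After saline it had 103, 88.1 and 97.1 CPM in superficial libraries, against 112, 97.6 and 104 CPM in deep libraries. The layers were separate after cbx and overlapped after saline. The difference was -0.17 after cbx (SE 0.0609, adjusted p = 0.0368) and -0.12 after saline (SE 0.0702, adjusted p = 0.264). Leaving out any of 6 of the 8 cbx libraries (superficial 1, 2 or 4, deep 1, 3 or 4) took the cbx call past the threshold, to adjusted p-values of 0.0530 to 0.0844. Grm7 had log2 differences of -0.28 to -0.10 in the 7 same-numbered pairs, all below 0. An antisense gene, Gm20387, shares 130 bases (2.21%) of its exons.

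**Figure D2:**
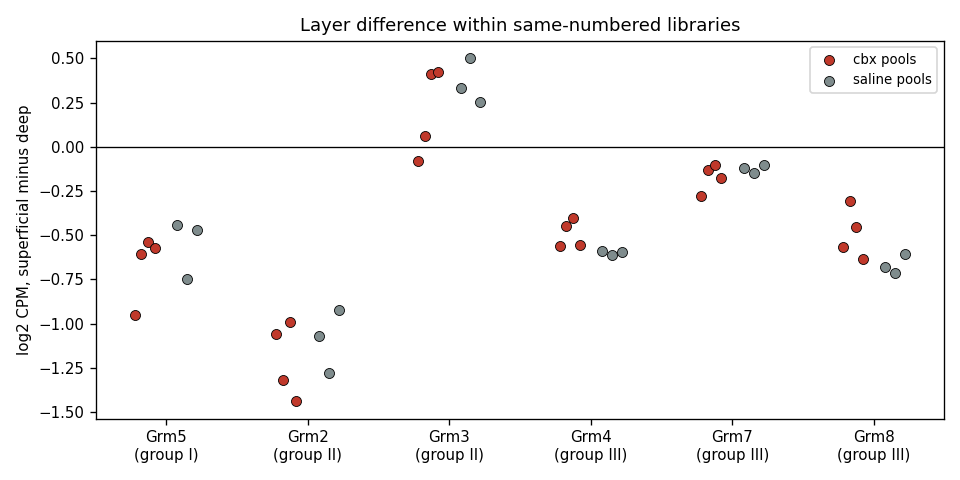
Log2 CPM of the superficial minus the deep library of the same treatment and number, for each receptor gene, with cbx pools left of saline pools. Points are the 4 cbx and 3 saline pools and the line marks no difference. Grm2 is lowest at -1.44 to -0.92, Grm4, Grm5, Grm7 and Grm8 are below 0 in all 7 pools, and Grm3 is above 0 in 6 of 7.

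Superficial and deep libraries also differed in what surrounds the neurons. Over all genes tested, 32.2% passed between the layers after cbx and 18.4% after saline, in either direction. The marker counts below stand beside those shares. Summed CPM of 6 meningeal fibroblast markers was 593 to 1119 in cbx superficial, 454 to 680 in saline superficial, 34.9 to 48.3 in cbx deep and 55.0 to 63.2 in saline deep libraries, and all 6 markers were higher in the superficial layer in both treatments. All 5 markers of oligodendrocyte precursors were lower there in both treatments, and 3 of 4 endothelial markers were higher in both. Of 6 microglia markers, 1 was higher and 2 were lower in the superficial layer after cbx, and 0 were higher and 5 lower after saline. Of 5 red blood cell markers, 4 were higher there after cbx and 0 after saline. Summed CPM of 7 pan-neuronal markers lay closer, at 4131 to 4359 in cbx superficial, 4355 to 4537 in saline superficial, 4310 to 4621 in cbx deep and 4687 to 4922 in saline deep libraries. They did not all go the same way: after cbx 1 was higher and 2 were lower in the superficial layer, and after saline 1 was higher and 0 lower, with median log2 differences of -0.05 and -0.12. These pan-neuronal counts are near the shares of all genes. The part of these cell types in the receptor levels was not tested. The 8 markers of the superior colliculus itself were all detected, 4 of them higher and 4 lower in the superficial layer in each treatment.

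The injection was compared next. In the superficial layer 1 of the 6 genes, Grm7, differed after cbx, and it was lower, where 4.33% of all genes passed in either direction. In the deep layer 0 of 6 passed, where 1.83% of all genes passed. At an unadjusted p under 0.05 there were 4 of 6 in the superficial layer, where 20.6% of all genes were, and 2 of 6 in the deep layer, where 15.3% were. DESeq2 called Grm7 and no other of the 6 in each layer, and 9.45% of the genes to which it gave an adjusted p in the superficial and 6.08% in the deep layer. With limma-voom 1 of 6 passed in the superficial layer, beside 4.33% of all genes, and 0 of 6 in the deep layer, beside 1.57%. The median log2 difference of the 6 genes was -0.03 in the superficial and -0.04 in the deep layer, against 0.0094 and 0.0069 over all genes.

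Grm7 had 77.0, 79.3, 83.2 and 81.0 CPM in cbx superficial libraries (80.2 ± 2.62, SD, n = 4), against 103, 88.1 and 97.1 CPM in saline superficial libraries (95.9 ± 7.31, n = 3). Every cbx library was below every saline library, but how many of all genes separated in this way was not counted. The difference was -0.26 (SE 0.0655, adjusted p = 0.0315), a fold of 0.836. In the deep layer cbx libraries had 90.3 ± 2.91 CPM (n = 4) against 104 ± 7.0 CPM in saline libraries (n = 3), again without overlap, and the difference of -0.21 (SE 0.0655, adjusted p = 0.107) did not pass by edgeR but did by DESeq2 (adjusted p = 0.0422). The superficial call was lost without saline superficial library 1 (-0.21, adjusted p = 0.154) or 3 (0.0999), without cbx superficial library 1 (0.0516) or 2 (0.0662), and without saline pool 1 and cbx pool 4 (-0.21, adjusted p = 0.233). It was also lost with no low-count filter (0.0645) and in a fit on the superficial libraries alone (0.101), while the direction held in all these fits.

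The other genes did not pass in either layer. Grm5 averaged 163 ± 24.1 CPM in cbx superficial and 193 ± 24.9 CPM in saline superficial libraries, a difference of -0.25 (95% interval -0.47 to -0.03, adjusted p = 0.185). In the deep layer it averaged 257 ± 18.8 CPM after cbx and 282 ± 23.1 CPM after saline, a difference of -0.14 (-0.36 to 0.08). Grm2 averaged 15.5 ± 2.25 CPM in cbx and 14 ± 1.48 CPM in saline superficial libraries, a difference of 0.15 (-0.08 to 0.38). Its deep values were 35.8 ± 3.77 CPM after cbx and 29.8 ± 0.751 CPM after saline, with 1 cbx library, at 30.4 CPM, among the saline ones, and the difference of 0.26 (0.04 to 0.49) had an adjusted p of 0.230 by edgeR.

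Grm3 averaged 100.05 ± 24.9 CPM in cbx and 116 ± 19.3 CPM in saline superficial libraries, a difference of -0.21 (-0.61 to 0.18), and 85.1 ± 8.10 CPM in cbx against 90.2 ± 15.5 CPM in saline deep libraries, a difference of -0.08 (-0.48 to 0.31). These intervals are the widest of the 6 genes. Grm4 averaged 88.3 ± 5.42 CPM in cbx and 78.4 ± 3.87 CPM in saline superficial libraries, a difference of 0.17 (0.03 to 0.31, adjusted p = 0.159 by edgeR). Its deep libraries had 124 ± 7.74 CPM after cbx and 119 ± 5.19 CPM after saline, a difference of 0.06 (-0.08 to 0.20). Grm8 averaged 28.8 ± 1.67 CPM in cbx and 25.3 ± 1.62 CPM in saline superficial libraries, a difference of 0.19 (0.01 to 0.36, adjusted p = 0.207 by edgeR). In the deep layer Grm8 had 40.5 ± 3.08 CPM after cbx and 40.2 ± 3.11 CPM after saline, a difference of 0.01 (-0.16 to 0.18). A p that misses the threshold does not show that these levels were the same, and the intervals give the sizes that remain possible.

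**Figure D3:**
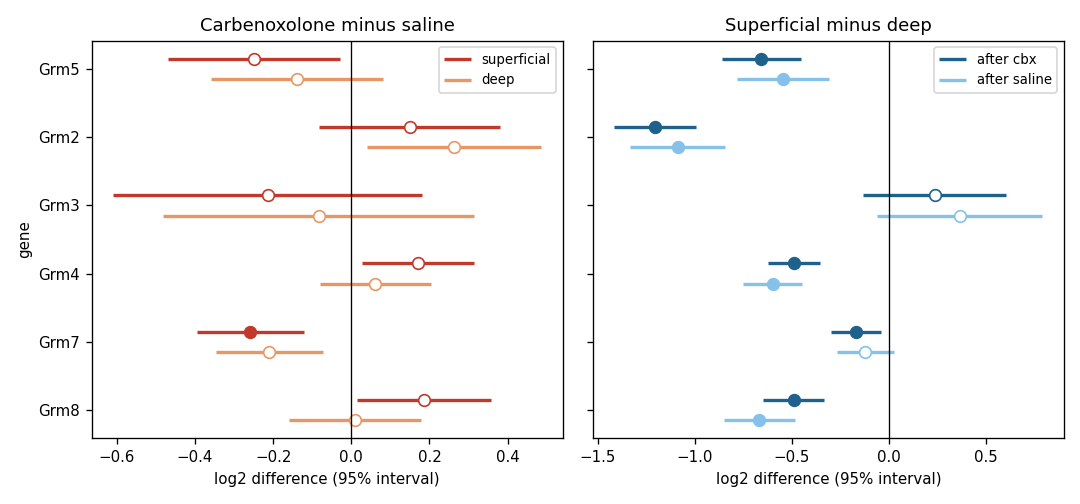
Log2 differences of the 6 receptor genes with 95% intervals, cbx minus saline in each layer (left) and superficial minus deep in each treatment (right). Filled circles have an adjusted p below 0.05 by edgeR and open circles do not. On the left Grm7 in the superficial layer is the filled one, and on the right all but Grm3 are filled after cbx and all but Grm3 and Grm7 after saline.

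Markers of some other cell types also differed between injections in the superficial layer. Over all genes, 4.33% passed there in either direction, and 1.83% in the deep layer. Of 6 microglia markers, 5 were higher after cbx, with a summed CPM of 224 to 241 in cbx superficial against 163 to 186 in saline superficial libraries, and none passed in the deep layer. Of 6 meningeal markers, 2 were higher after cbx in the superficial layer. Of 8 astrocyte markers 1 was lower after cbx there, and of 8 markers of the superior colliculus 1 was higher. Of 5 oligodendrocyte precursor markers, 0 passed there and 1 was lower after cbx in the deep layer. Summed CPM of 6 cerebellum markers was 174 to 216 in cbx superficial against 163 to 168 in saline superficial libraries, without overlap. None of the 5 of them tested passed. Of 5 red blood cell markers, 1 was higher after cbx there, and their summed CPM was 238 to 388 in cbx superficial against 149 to 230.5 in saline superficial libraries, without overlap. Saline superficial library 1 stood apart in the summed CPM of 5 myelin markers, at 374, where cbx superficial libraries had 171 to 220.3 and the other saline superficial libraries 172 and 177. Saline superficial library 3 stood apart in markers of cortex and hippocampus, at 11.4 CPM, where cbx superficial libraries had 3.73 to 4.74 and the other saline superficial ones 3.25 and 3.31. Both are among the libraries whose omission ended the Grm7 call. So are cbx superficial libraries 1 and 2, which did not stand apart in these sums. They had 187 and 220.3 CPM of the myelin markers, and 3.84 and 3.73 CPM of the markers of cortex and hippocampus. Why these omissions ended the call was not tested. Of 7 pan-neuronal markers, 1 was higher after cbx in the superficial layer and none lower, with a median log2 difference of -0.04. The pools also differed in sex: saline pool 1 had 0.572 and 1.94 CPM of Xist, expressed in females, where the pools other than it and cbx pool 4 had 187 to 683 CPM, and cbx pool 4 had 0 counts of Ddx3y, on the Y chromosome. The part of these differences in the Grm7 level was not tested beyond leaving those pools out, as given above.

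Whether the injection acted differently in the layers was tested as the superficial minus the deep cbx difference. It passed for 0 of the 6 genes and 0% of all genes tested by edgeR. At an unadjusted p under 0.05 there were 0 of 6 and 1699 genes (8.36%). That fit took the layers as unpaired. With the pool as a block, edgeR again called 0 of the 6 genes. It did then call some of all genes tested, as counted in the closing section. DESeq2 called 0 of the 6 and 60 of all genes (0.295% of those with an adjusted p), and limma-voom called 0 of both. The interval was -0.24 to 0.15 for Grm7, -0.42 to 0.20 for Grm5, -0.43 to 0.21 for Grm2, -0.69 to 0.43 for Grm3, -0.09 to 0.31 for Grm4 and -0.06 to 0.42 for Grm8. A difference between layers in the injection's effect was thus not detectable for these genes with these libraries, and the Grm7 change is not shown to be limited to the superficial layer.

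The profiles of the receptor genes over the 14 libraries were compared by the root mean square distance between their log2 CPM, each centred on its own mean. Of the 15 pairs, Grm4 and Grm8 of group III were closest, at 0.083, and Grm2 and Grm3 of group II were farthest apart, at 0.80. Grm7 lay 0.27 from Grm4 and 0.28 from Grm8, farther than Grm5 of group I did, at 0.23 and 0.20. Among 15142 other genes, Cnr1 (the cannabinoid receptor CB1) and Dnajc6 (auxilin, for uncoating of clathrin vesicles) were the nearest to both Grm4 (0.071 and 0.074) and Grm8 (0.063 and 0.070). The third were Glrb (the glycine receptor beta subunit, 0.075) for Grm4 and Rgs17 (a regulator of G protein signalling, 0.077) for Grm8. Grm5 was nearest to Eps8 (an actin regulator, 0.056), Akap6 (a protein kinase A anchor, 0.074) and Kif5a (a kinesin motor, 0.075). Among the 3 genes nearest to Grm2 were Mal2 (a membrane trafficking protein, 0.10) and Htr7 (a serotonin receptor, 0.14). Grm3 was nearest to Fat1 (an atypical cadherin, 0.065), Plxdc2 (0.089) and Zfp704 (0.099), and Grm7 to Aldh5a1 (succinic semialdehyde dehydrogenase of GABA breakdown, 0.043), Nlgn2 (neuroligin 2 of inhibitory synapses, 0.047) and Rnft2 (0.048). All distances share the libraries and the layer difference, so they describe these samples only. They also depend on how much each profile varies, since profiles were centred but not scaled. The root mean square of the centred profile was 0.60 for Grm2 and 0.15 for Grm7. The median distance to the other genes was 0.65 for Grm2 and 0.26 for Grm7. Distances of different receptor genes are therefore not on the same footing.

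The genes around the receptors were grouped by role. Of 11 genes of group I coupling (Gq, phospholipase C beta, IP3 receptors and protein kinase C), 1 was higher and 5 were lower in the superficial layer after cbx, and 0 were higher and 2 lower after saline, with median differences of -0.14 and -0.03. Over all genes 32.2% passed after cbx (3671 higher, 2873 lower) and 18.4% after saline (1965 higher, 1774 lower), so the 2 of 11 after saline are near the share of all genes. Prkcb (protein kinase C beta) differed by -0.39 after cbx (adjusted p = 0.000427) and -0.27 after saline (adjusted p = 0.0324). Plcb1 (phospholipase C beta 1) differed by -0.30 after cbx (adjusted p = 0.00204) and by -0.21 after saline, which did not pass (adjusted p = 0.0703). Between injections Prkcb was the 1 gene of this list to pass, at 252 ± 28.7 CPM in cbx and 308 ± 17.7 CPM in saline superficial libraries (-0.29, SE 0.0806, adjusted p = 0.0469), and Grm5 itself did not pass there, at -0.25.

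Of 22 genes of group II and III coupling (Gi/o subunits, adenylyl cyclases and GIRK potassium channels), 3 were higher and 11 lower in the superficial layer after cbx, and 1 was higher and 7 lower after saline, with medians of -0.36 and -0.23, beside 32.2% and 18.4% of all genes in either direction. Adcy8, a calcium-stimulated adenylyl cyclase, went against the list at 108 ± 5.68 CPM in cbx superficial and 60.5 ± 3.35 CPM in cbx deep libraries (0.83, adjusted p = 2.67e-08), and likewise after saline (1.03, adjusted p = 2.37e-08). Adcy2, a calcium-independent cyclase, was lower in the superficial layer (-0.80 after cbx, adjusted p = 1.44e-07, and -0.78 after saline, adjusted p = 2.92e-06). Kcnj3 (the channel subunit GIRK1) averaged 15.9 ± 1.48 CPM in cbx superficial and 33.1 ± 2.27 CPM in cbx deep libraries (-1.06, adjusted p = 9.06e-08), and differed by -0.90 after saline (adjusted p = 1.10e-05). Gnaz, a Gi-family alpha subunit, differed by -0.68 after saline (adjusted p = 4.33e-06) and by -0.61 after cbx (adjusted p = 1.34e-06). Between injections no gene of the list passed in the superficial layer, and 1 did in the deep layer: Kcnj9 (GIRK3) was higher at 31.7 ± 2.13 CPM in cbx against 22.6 ± 1.41 CPM in saline libraries (0.49, SE 0.0938, adjusted p = 0.0111).

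Of 20 receptor partners and regulators (scaffolds, trans-synaptic partners and regulators of G protein signalling), 4 were higher and 10 lower in the superficial layer after cbx, and 3 were higher and 5 lower after saline, with medians of -0.25 and -0.18, where 32.2% and 18.4% of all genes passed. Elfn1, a postsynaptic adhesion protein that binds group III receptors across the synapse, averaged 37.8 ± 5.13 CPM in cbx superficial and 79.9 ± 4.47 CPM in cbx deep libraries (-1.08, adjusted p = 1.22e-08), and differed by -1.07 after saline (adjusted p = 2.30e-07). Ncdn (neurochondrin, which binds mGluR5) was also lower (-0.44 after cbx, adjusted p = 6.74e-06, and -0.55 after saline, adjusted p = 4.98e-06). Homer3, a scaffold of group I receptors, was higher, at 20.3 ± 1.73 CPM in cbx superficial and 12.2 ± 0.938 CPM in cbx deep libraries (0.74, adjusted p = 1.66e-06), and also after saline (0.77, adjusted p = 1.36e-05). No gene of this list passed between injections in either layer by edgeR.

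Of 14 genes of ligand release, uptake and turnover, 1 was higher and 7 lower in the superficial layer after cbx, and 1 was higher and 5 lower after saline, with medians of -0.30 and -0.19, against 32.2% and 18.4% of all genes called. Slc17a6, the vesicular glutamate transporter VGLUT2, averaged 199 ± 8.91 CPM in cbx superficial and 412 ± 23.0 CPM in cbx deep libraries (-1.05, adjusted p = 3.01e-10), and 201 ± 18.2 CPM in saline superficial and 393 ± 16.3 CPM in saline deep libraries (-0.97, adjusted p = 1.53e-08). Rimkla, which makes the group II agonist N-acetylaspartylglutamate, was lower, at -0.55 in both treatments (adjusted p = 4.82e-06 after cbx and 4.97e-05 after saline). Slc1a1, a neuronal glutamate transporter, was lower after saline (-0.49, adjusted p = 0.00127) and after cbx (-0.35, adjusted p = 0.00364). Slc7a11, the cystine-glutamate exchanger, was the 1 higher gene in each treatment. After cbx it had 96.0 ± 26.4 CPM in superficial and 34.8 ± 1.43 CPM in deep libraries (1.46, adjusted p = 2.15e-05), beside the meningeal marker sums given above, whose part was not tested. Between injections 1 gene passed in the superficial layer and none in the deep layer: Slc1a3 (the astrocyte transporter GLAST) was lower at 479 ± 31.3 CPM in cbx against 600.4 ± 37.3 CPM in saline libraries (-0.32, SE 0.0842, adjusted p = 0.0358).

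**Figure D4:**
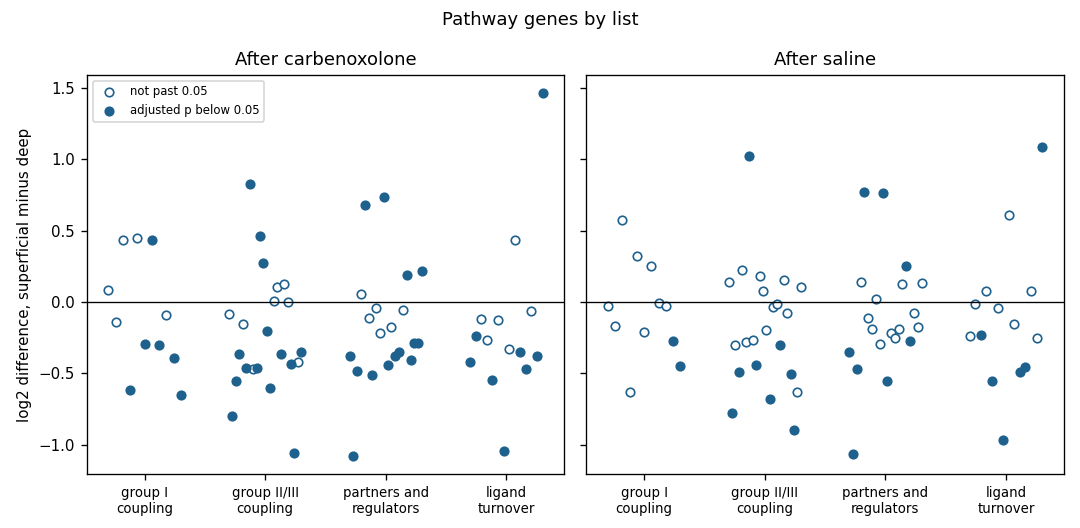
Log2 difference of superficial minus deep for each gene of the 4 lists, after cbx (left) and after saline (right), n = 4 and 3 libraries a layer. Filled circles have an adjusted p below 0.05 by edgeR. The medians of the lists lie below 0, between -0.36 and -0.14 after cbx and between -0.23 and -0.03 after saline, with Slc7a11 and Adcy8 among the genes well above 0.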

How the data were processed

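Poly-A RNA of superficial and deep superior colliculus was sequenced in 14 libraries. The authors deposited whole-number read counts per gene, 1 table a library with 55359 Ensembl IDs. The tools named in the submitters' processing notes are STAR 2.7.9d, featureCounts, Subread 2.0.1, SAMtools 1.14 and FastQC 0.11.9. The notes name the builds mm10 and GRCm39 with no role for each. The annotation and the strand setting were not given in the sources used here. Symbols matched 52083 IDs, with 98.7% of counts. Exon lengths and overlaps came from GENCODE M21.

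Groups and replicate numbers came from the labels. Counts were tested in edgeR 4.0.16 (R 4.3.3): filterByExpr by group left 20330 genes, TMM factors scaled the libraries, and 1 robust quasi-likelihood fit of the 14 libraries took 4 group means, leaving 10 residual degrees of freedom. The threshold was a Benjamini-Hochberg adjusted p of 0.05. An SE is the log2 difference divided by the root of its F statistic. The test was checked on simulated counts. TPM divides counts by exon length over all genes with a length. Distances used log2 CPM with a prior count of 2 and genes with a mean of at least 1 CPM.

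The members and lists were chosen with earlier results of these data known. The text names all 6 genes, from each list up to 3 called genes with the smallest p-values in a comparison, and the 3 nearest genes of each member. Some genes under this rule are not reported here.

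Within groups, all 18 pairs of replicates differed beyond sampling noise (chi-square per gene 7.68 to 51.8), and none was treated as a duplicate. Deviations of same-numbered libraries of a treatment correlated between layers at 0.182 to 0.394 in 7 pairs, over 15168 genes of at least 1 CPM, and 14 of 14 libraries correlated best with their own number. The CPM cut-off was set after seeing the data, and over all 20330 genes tested the correlations were 0.00501 to 0.180, with 10 of 14 libraries best with their own number. Between treatments 6 same-numbered pairs correlated at -0.276 to -0.0167. The numbers were therefore taken to pair the layers and not the treatments, although no label states that same-numbered libraries came from the same brains.

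Alternatives were other size factors, no low-count filter, 1 CPM in 3 libraries, DESeq2 1.42.0, limma-voom (limma 3.58.1), the groups compared only, a replicate block, each library left out, and saline pool 1 with cbx pool 4 left out. Removal of trends with transcript length and GC content was added after seeing the data.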

Additional observations from a re-analysis of the deposited data

Results flagged for a closer look

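Grm4 in cbx superficial libraries had 1 library far from the others: library 4 had 80.2 CPM, where the other 3 had 90.4 to 91.5 CPM. Its gap to the nearest was 0.901 of the group's range, above the 95% critical value of Dixon's test for 4 libraries. Of the 12 groups of 4 libraries examined for the 6 genes, it was the 1 found. Chance alone flags about 1 in 20 of such groups, so 1 among 12 is not unusual. Without that library the cbx minus saline difference of Grm4 in the superficial layer was 0.21 (edgeR adjusted p = 0.0770), against 0.17 (adjusted p = 0.159) with it.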

How the results depend on the processing

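The layer calls of Grm2, Grm4, Grm5 and Grm8 held in both treatments under each library left out and each of the 9 other settings. The number of receptor genes called in the superficial cbx comparison was 1, and it was 0 with no low-count filter, with only the groups compared, with the replicate number as a block (Grm7 adjusted p = 0.0524), and without saline pool 1 and cbx pool 4. It was 0 to 1 with 1 library left out. In the deep cbx comparison it was 0, and 1 by DESeq2. It was 5 in the layer comparison after cbx (4 to 5 with 1 library left out) and 4 after saline. The pool as a block gave 6 and 5, adding Grm3, as did no low-count filter for Grm3 (adjusted p = 0.0346 and 0.00304), and changed no other receptor call. Grm7 lost its layer call after cbx with no low-count filter (adjusted p = 0.0971) and without the pools named above (0.11), and gained one after saline with length and GC trends removed (-0.19, adjusted p = 0.0400). Uncalled differences changed sign in 3 cases. Grm3 in the deep cbx comparison was 0.0723 without those pools and -0.16 to 0.0649 with 1 library left out. Grm8 there was -0.0171 with length and GC trends removed and -0.0405 to 0.0697 with 1 library left out. The layer difference of the Grm7 cbx effect was -0.11 to 0.0033 with 1 library left out. The causes were not tested.

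Over all genes, the superficial cbx comparison called 880 genes (545 higher, 335 lower), and 1459 with no low-count filter, 1585 by DESeq2, 142 with only the groups compared, 480 with the number as a block, 91 without the named pools and 140 to 907 with 1 library left out. The split was 538 higher and 551 lower with 1 CPM in 3 libraries, and 535 and 588 with length and GC trends removed. The deep cbx comparison called 373 (215 higher, 158 lower), and 566, 901, 611, 191 and 14 under those 5 settings in the same order, 748 (338 higher, 410 lower) with the trends removed, and 42 to 272 with 1 library left out. The layer comparisons had 3671 higher and 2873 lower genes after cbx (2923 and 4015 with the trends removed), and 1965 and 1774 after saline (1777 and 2613), where 2133 were called without the named pools. The test of the layer difference in the cbx effect called 0 genes, but 256 with no low-count filter, 60 by DESeq2, 61 with the pool as a block and 0 to 14 with 1 library left out. The 95% intervals in the report give the sizes of receptor differences that these libraries could not tell from 0.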
